A study of Mus musculus with 11 samples.

Results

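The histone genes were examined in the transcriptomes of vTreg53 Treg cells, regulatory CD4+ T cells that carry the T cell receptor of a Treg clone from visceral adipose tissue (VAT). The genes were chosen by symbol from the deposited count table of 52997 genes. Of 91 symbols that name a canonical histone (Hist1h to Hist4h, 70 symbols) or a replacement histone (H2af, H3f3 or H1f, 21 symbols), 48 reached a summed raw count of 50 over the 11 libraries and were kept, 36 of them Hist genes and 12 replacement histone genes. No count at all was listed for 15 symbols. Just inside the limit lay Hist1h4h with 53 counts in all libraries together and Hist1h3d with 54, and just outside it lay Hist1h4j with 45 and Hist1h2af and Hist1h3h with 42 each.

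Every library was made from 1000 sorted clonotype+ CD45.2+ Treg cells. Donor cells, taken from pooled spleen and lymph nodes of male Tg+ mice with a GFP reporter in Foxp3, were transferred into male CD45.1+ C57BL/6 mice, which keep Treg cells of their own. The recipients were immunized 6 weeks later with the surrogate agonist peptide Fat1562 in adjuvant or with adjuvant alone and were boosted 1 week after that. The labels call the control mice unimmunized and name PBS, whereas the paper describes adjuvant alone, and that name is kept here. The labels give an age of 15 weeks, male sex and the vTreg53 Tg+ genotype for all samples, so every group shares the transgenic receptor and differs only in tissue and immunization. Cells from spleen and lymph nodes (Spl/LN) gave 3 libraries with adjuvant alone and 3 with adjuvant/Fat1562, and cells from VAT gave 2 and 3 libraries respectively. Whether a replicate number marks a shared recipient is not stated, so p-values measure the spread between these libraries.

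Histones are the proteins around which DNA is wound. The core histones H2A, H2B, H3 and H4 form the nucleosome, and the linker histone H1 binds where DNA enters and leaves it. The replication-dependent genes, here those named Hist, sit in clusters, have no introns as a rule and are transcribed mainly in S phase, when new chromatin is built. Their mRNAs typically do not end in a poly(A) tail. They end just after a short stem-loop that the protein SLBP binds. The replacement histones, among them H2A.Z, macroH2A, H3.3 and H1.0, are made throughout the cell cycle and in resting cells from ordinary polyadenylated mRNAs. The libraries were primed with oligo(dT), which copies polyadenylated RNA, so the counts of Hist genes refer to whatever part of their transcripts such a primer captured.

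The annotated transcripts (GENCODE vM21, GRCm38) were searched for the stem-loop as the 16 letters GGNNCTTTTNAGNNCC, on the transcript strand. A match was found in 30 of the 36 Hist members (83.3%) and in 1 of the 12 replacement members, against 89 of 55341 annotated genes (0.161%). All 8 H4 members carried a stem that begins with GGCCC, whereas the 22 matching H1, H2A, H2B and H3 members carried GGCTC. The stem-loops shown are those of the 3 Hist genes called in a comparison, of the Hist gene with the highest mean count, of an H2B gene whose annotation stops at the loop and of H2afx, with the matched letters in capitals, 5′ to 3′.
Hist1h1e: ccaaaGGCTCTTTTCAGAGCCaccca
Hist1h4d: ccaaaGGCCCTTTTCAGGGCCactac
Hist2h4: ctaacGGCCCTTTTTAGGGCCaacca
Hist1h4i: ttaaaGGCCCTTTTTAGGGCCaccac
Hist1h2bj: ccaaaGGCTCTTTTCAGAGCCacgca
H2afx: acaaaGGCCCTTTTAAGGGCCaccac
The annotated transcript ended within 100 bases of the loop in 12 Hist members, as in Hist1h2bj, where 23 bases follow it. It ran on for more than 100 bases in 18 Hist members, 8 of which hold AATAAA or ATTAAA, the letters of a polyadenylation signal, in their last 60 bases. Hist1h1e ran on for 1153 bases, Hist1h4d for 770, Hist2h4 for 1257 and Hist1h4i for 330. In 6 Hist members no match was found. H2afx, whose product H2A.X marks DNA breaks once phosphorylated, holds the loop in the middle of its transcript with 822 bases after it.

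Total counts ran from 4490242 to 6570057 per library. Markers of Treg cells were high throughout, with Foxp3 at 6747 to 10250 normalized counts. Normalized counts are counts per TMM-scaled library size (TMM is edgeR's scaling factor), expressed at the average library total. Of 7 stromal or adipocyte markers, none exceeded 31.2 normalized counts and their summed level was 2.83 to 7.84 CPM (counts scaled to a library size of 1000000) in every library. The 7 myeloid markers summed to 6.52 to 32.6 CPM, with 6.52 and 7.49 CPM in VAT adjuvant alone and 8.16 to 15.5 CPM in VAT adjuvant/Fat1562. Adgre1 and Cd14 were at 0 in 6 libraries each, whereas Itgam and Lyz2 reached 76.3 and 70.4 normalized counts. By the edgeR test, Itgam was higher with Fat1562 in VAT (log2 fold change 3.23, adjusted p 0.0498). With adjuvant alone it was lower in VAT than in Spl/LN (-3.14, 0.0351), at 0 and 5 raw reads in VAT. Of the B cell markers, Ms4a1 and Pax5 stayed at or under 6.51 normalized counts in every library and were at 0 in 4 and 3 of the 11, Cd79a and Cd79b reached 25.5 and 204, and the immunoglobulin genes Ighm and Igkc were counted everywhere. Replicate 2 of VAT adjuvant alone stood apart from the rest in these genes, with Ighm at 28547 and Igkc at 10320 normalized counts, against at most 17028 and 1780 in the other libraries. Its summed B cell markers reached 7282 CPM, while replicate 1 of the same group had 1287 CPM, the adjuvant/Fat1562 libraries of VAT 1230 to 1649 CPM and the Spl/LN libraries 2277 to 3436 CPM. That library is 1 of the 2 on which every VAT comparison with adjuvant alone rests, so the counts of called genes and the main values of these comparisons are also given without it, and the part of B cell or myeloid RNA in them was not tested.

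Replacement histones made up most histone counts in every library. The 36 Hist members held 377 to 798 raw counts per library together, whereas the 12 replacement members held 6986 to 11109. The Hist share of all histone counts was 6.11 to 7.33% in Spl/LN adjuvant alone, 6.38 to 7.07% in Spl/LN adjuvant/Fat1562, 4.72 and 5.12% in VAT adjuvant alone and 5.54 to 6.21% in VAT adjuvant/Fat1562. The VAT adjuvant alone libraries thus lay below all others, and the VAT adjuvant/Fat1562 libraries reached the lower end of the Spl/LN range. The share depends on the replacement counts as well as on the Hist counts. After adjuvant/Fat1562, Hist genes summed to 112.8 to 124.5 CPM in VAT and 106.2 to 112.7 CPM in Spl/LN. Replacement genes summed to 1873 to 1922 CPM in VAT and 1435 to 1646 CPM in Spl/LN. In bulk samples such as these, the number of cells in S phase, the histone mRNA per cell and the part of it captured by oligo(dT) cannot be told apart. The median Hist member had 134.5 counts in the 11 libraries together and the median replacement member 4169.5, and 14 of the 36 Hist members had fewer than 10 counts a library on average. With so few reads, a change in a single Hist gene had to be large to be detectable.

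Per kilobase of exon, the H2A.Z gene H2afz and the H3.3 gene H3f3b had the highest levels, with means over all libraries of 252 and 250 CPM per kb. Below them came H2afv, which encodes the second H2A.Z protein, at 101 CPM per kb, H2afx at 60.1, H1f0, the gene of the linker histone H1.0 of non-dividing and differentiated cells, at 43.5, the H2A variant gene H2afj at 32.0 and H3f3a, which encodes the same H3.3 protein as H3f3b, at 23.5. The order of H2afz and H3f3b was not the same in all groups. H3f3b was 1.01 to 1.29 times H2afz per kb in Spl/LN adjuvant alone and 1.39 and 1.11 times in VAT adjuvant alone, 0.78 to 1.07 times in Spl/LN adjuvant/Fat1562 and 0.70 to 0.84 times in VAT adjuvant/Fat1562. The highest Hist member was the H4 gene Hist1h4i, at 18.1 CPM per kb, followed by the H2B gene Hist1h2bj at 10.6 and the H2A gene Hist1h2ab at 9.88, and H2afy, the macroH2A gene, lay among them at 8.38. The other replacement members were low. They were the oocyte linker histone gene H1foo, the processed pseudogenes H3f3a-ps1 and H2afy3, and H3f3aos, an antisense transcript of H3f3a that shares 160 exon bases with it, at 0.395 to 2.41 CPM per kb. Reads of H3f3a and H3f3aos cannot be told apart where the exons overlap, and the use of strand in the counting is not given in the sources used here. The same holds for Gm17275, which overlaps H3f3a on the opposite strand over 638 exon bases. It also holds for the antisense transcripts that overlap H1f0, H2afj, H2afx and H2afy over 141 to 501 exon bases.

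**Figure D1:**
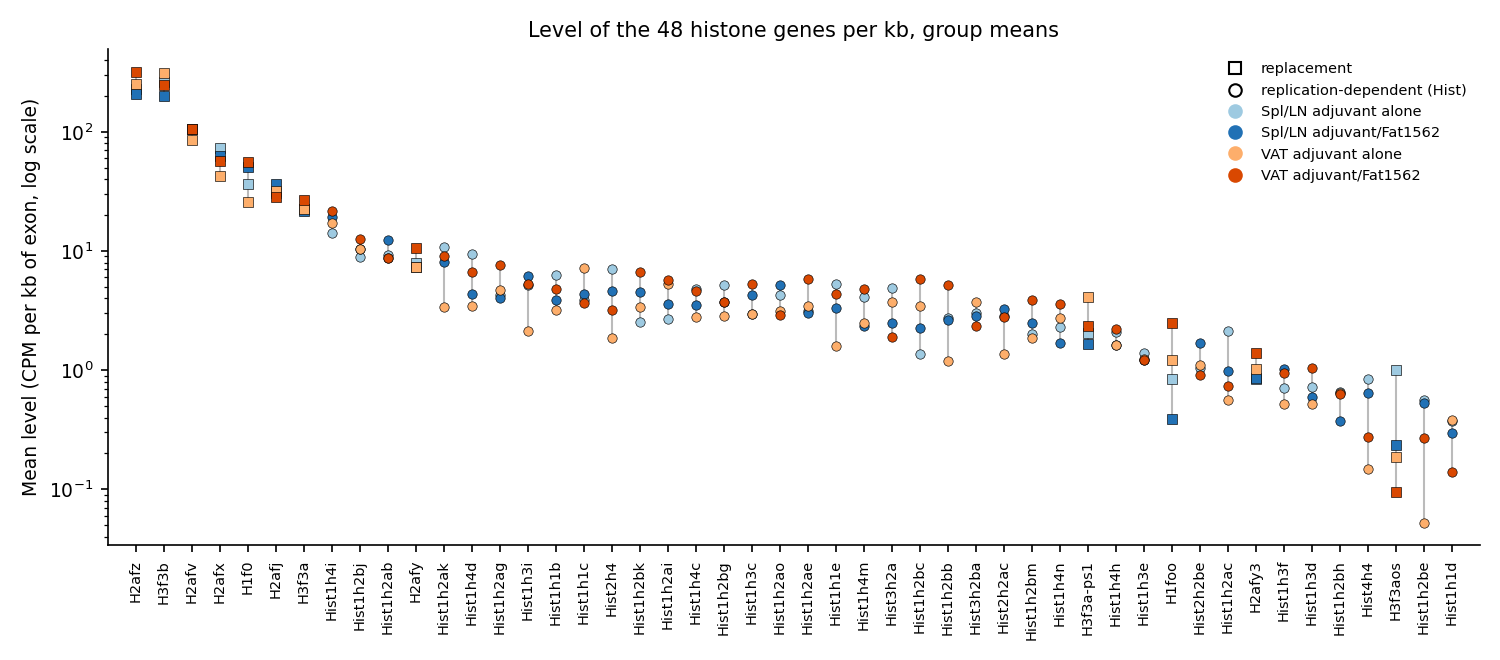
Mean level of the 48 histone genes in each of the 4 groups, in CPM per kb of exon on a log axis, ordered by the mean over all libraries; squares are replacement and circles Hist genes. H2afz and H3f3b lie at about 250 CPM per kb, and the highest Hist gene, Hist1h4i, at 18.1.

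Many Hist genes are near copies of each other, which limits how firmly reads can be placed. Between 1.2 and 93.7% of the 38-base stretches of a Hist member, the length of a read, also occur in another annotated gene (median 45.3%), against 0 to 67% for replacement members (median 9.05%). Under 20% was shared in 9 Hist and 8 replacement members. Among the genes named below, 33.7% of Hist1h1e, 13.4% of Hist1h4d, 1.76% of Hist2h4 and 32.6% of Hist1h4i is shared, and 39.4% of H2afz. Hist1h1e also overlaps Hist1h2be on the same strand over 496 exon bases, and Hist3h2a overlaps Trim17 over 708. How reads with several matches were counted is not given in the sources used here.

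Taken as a class, Hist transcripts summed to 143.6, 107.7 and 130.1 CPM in Spl/LN adjuvant alone (mean 127 ± 18.2, SD, n = 3) and to 106.2, 112.7 and 112.2 CPM in Spl/LN adjuvant/Fat1562 (110.3 ± 3.6, n = 3). In VAT they summed to 99.9 and 87.7 CPM with adjuvant alone (93.8 ± 8.63, n = 2) and to 124.1, 112.8 and 124.5 CPM with adjuvant/Fat1562 (120.5 ± 6.66, n = 3). In VAT the groups did not overlap, and the ratio of their means was 0.36 on the log2 scale, while in Spl/LN they overlapped and the ratio was -0.20. The difference in VAT depended on which members were summed. Over the 9 members with under 20% shared stretches, the log2 ratio in VAT was 0.05. These sums describe the class and were not tested.

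Replacement transcripts summed to 1655 to 1815 CPM in Spl/LN adjuvant alone, 1435 to 1646 CPM in Spl/LN adjuvant/Fat1562, 2017 and 1626 CPM in VAT adjuvant alone and 1873 to 1922 CPM in VAT adjuvant/Fat1562. Only in Spl/LN did the sums of the 2 immunization groups not overlap, with a log2 ratio of -0.18. H3f3b and H2afz together supplied 61.8 to 77.7% of the sum. Without H3f3b the log2 ratio was -0.03 in Spl/LN and, instead of 0.06, 0.38 in VAT. The 28 genes of an S phase list (replication licensing, nucleotide synthesis, polymerases and cyclins) summed to 2764 to 3518 CPM, 2828 to 2972 CPM, 3151 and 2129 CPM, and 3720 to 4581 CPM in the same order of groups, so that VAT adjuvant/Fat1562 lay above all other libraries.

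**Figure D2:**
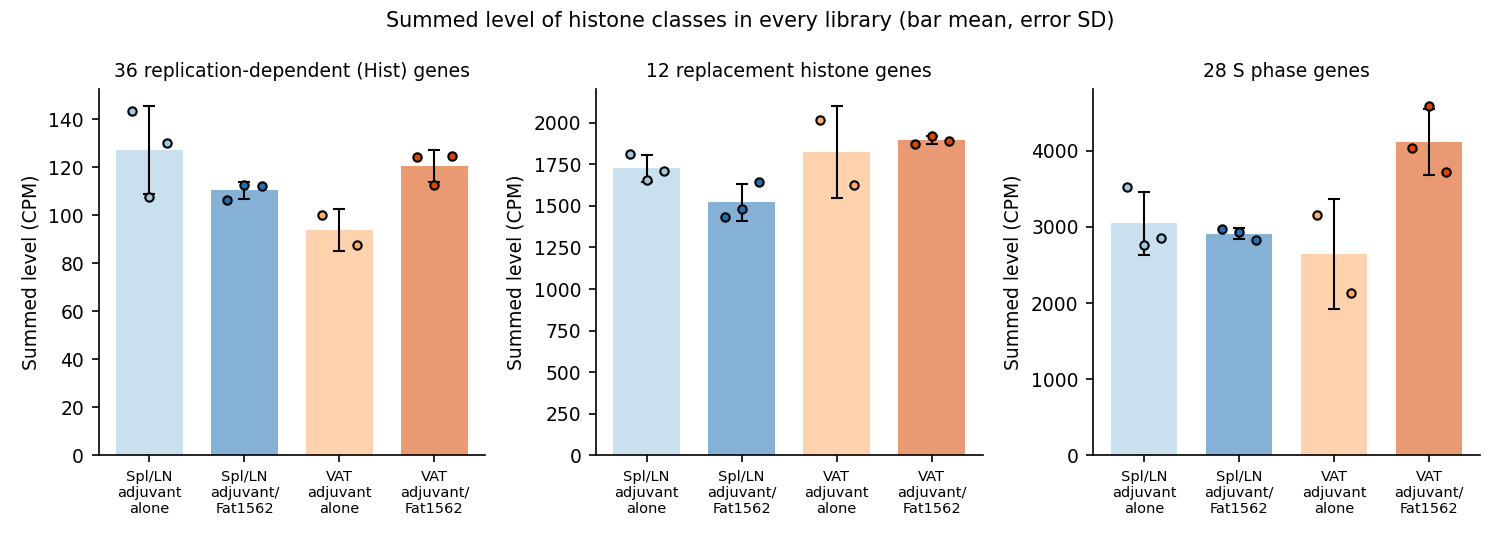
Summed level in CPM of the 36 Hist genes, the 12 replacement histone genes and the 28 S phase genes, with a point for each library, bars at the group mean and error bars of 1 SD. Hist genes in VAT reach 99.9 CPM at most with adjuvant alone and 112.8 CPM at least with adjuvant/Fat1562, and S phase genes are highest in VAT adjuvant/Fat1562.

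The make-up of the Hist class by annotated end also differed between groups. Genes whose transcripts run on past the stem-loop supplied 67.2, 71.5 and 68.2% of all Hist counts in Spl/LN adjuvant alone and 65.0, 58.4 and 58.1% in Spl/LN adjuvant/Fat1562. In VAT they supplied 65.4 and 59.7% with adjuvant alone and 54.1, 55.9 and 58.7% with adjuvant/Fat1562. With all Hist members counted, every adjuvant/Fat1562 library lay below every adjuvant alone library in both tissues, and the mean share fell by 8.46 percentage points in Spl/LN and fell by 6.30 in VAT. The difference in VAT rests on 2 controls that are themselves apart, and the share there fell by 3.45 percentage points without replicate 1 of VAT adjuvant alone and fell by 9.15 without replicate 2. In summed level, these 18 genes were at 87.4 ± 9.82 and 66.6 ± 2.08 CPM in Spl/LN and at 58.8 ± 9.18 and 67.8 ± 5.08 CPM in VAT, without and with Fat1562. The 12 genes that end near the loop were at 23.3 ± 5.73 and 26.7 ± 3.20 CPM in Spl/LN and at 21.4 ± 1.96 and 32.1 ± 0.69 CPM in VAT. The difference in VAT was not seen among members with under 20% shared stretches, where the share was 81.2 ± 2.0% with adjuvant alone and 80.7 ± 8.5% with adjuvant/Fat1562, and in Spl/LN the groups then overlapped. Without members that overlap another gene on the same strand, the groups overlapped in both tissues. Adjuvant alone and adjuvant/Fat1562 were then at 58.4 to 61.4% and 49.7 to 58.6% in Spl/LN. In VAT they were at 60.7 and 52.4%, and at 47.5 to 53.0%. The mean share still fell by 6.37 percentage points in Spl/LN and by 6.80 in VAT. The share is a description, was chosen after its values were seen and was not tested.

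To ask what Fat1562 did in VAT, the libraries with adjuvant/Fat1562 were set against those with adjuvant alone. Of the 39 histone genes with enough reads to test (29 Hist and 10 replacement), H1f0, H2afz and Hist1h1e were called higher and none lower at an adjusted p under 0.05, which is 7.69% of them against 8.30% of all 12932 genes tested in either direction. In either direction the count was therefore near that of genes at large. Of all genes, 4.33% were called higher and 3.97% lower. Estimates were above 0 for 22 of the 29 Hist genes (median log2 fold change 0.71) and for 7 of the 10 replacement genes (median 0.33), whereas the median over all genes was 0.01. These counts are partly set by the filter, since Hist1h2bb, Hist1h2bm, Hist1h4m and H1foo entered the test only through their level in VAT adjuvant/Fat1562, and Hist4h4 and H3f3aos only through Spl/LN adjuvant alone. Without such genes, 18 of 25 Hist estimates were above 0, with a median of 0.58. With no filter, 27 of all 36 Hist members were above 0 (median 0.70). Without replicate 2 of VAT adjuvant alone, 23 of 29 were above 0 and the median was 0.45, and without replicate 1, 21 of 29 and 0.585.

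H1f0 had 273 and 296 normalized counts in VAT adjuvant alone and 573, 559.7 and 706 in VAT adjuvant/Fat1562. The groups did not overlap and all adjuvant/Fat1562 libraries lay well above. The log2 fold change was 1.11 ± 0.21 (SE), adjusted p 0.00301, and the gene was called under all 7 other settings and with any 1 of the 11 libraries left out. H1f0 (chr15:79028450-79030504, plus strand, GRCm38) is a gene of 1 exon.

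H2afz (chr3:137864487-137866922, plus strand, up to 5 exons) had 2530 and 2224 normalized counts in VAT adjuvant alone and 3239, 3047 and 2827 in VAT adjuvant/Fat1562. Its log2 fold change was 0.35 ± 0.10, adjusted p 0.0352. H2A.Z is placed at active promoters and enhancers independently of replication. The groups did not overlap. The call was lost with only the groups compared in the fit (0.0501) and with any 1 of 4 libraries left out, at an adjusted p of 0.0563 without replicate 1 of VAT adjuvant alone, 0.309 (log2 fold change 0.27) without replicate 2, the library high in immunoglobulin transcripts, and 0.120 and 0.0958 without replicates 1 and 2 of VAT adjuvant/Fat1562.

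Hist1h1e (chr13:23620629-23622558, minus strand, 1 exon), a replication-dependent linker histone gene, had 14.1 and 18.7 normalized counts in VAT adjuvant alone and 45.0, 46.8 and 43.8 in VAT adjuvant/Fat1562. The adjuvant/Fat1562 libraries were alike and the 2 control libraries, with 13 and 15 raw reads, were low. The log2 fold change was 1.46 ± 0.42, adjusted p 0.0424. The call held with 4 of the 11 libraries left out in turn and was lost without any single VAT library, at an adjusted p of 0.257 (log2 fold change 1.27) and 0.133 (1.67) without control replicates 1 and 2 and of 0.0813 to 0.110 without a library of VAT adjuvant/Fat1562, and also without replicate 1 or 3 of Spl/LN adjuvant/Fat1562 (0.0553 and 0.0543). It was lost as well with no filter (0.126) and with the replicate number as a block (0.0669).

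The remaining replacement genes did not pass the test in VAT. H2afy had a log2 fold change of 0.52 ± 0.17 (adjusted p 0.0805, and 0.0307 with only the groups compared), H2afx 0.42 ± 0.16 (0.126), H2afv 0.31 ± 0.12 (0.145), H3f3a 0.24 ± 0.13 (0.298), H2afj -0.16 ± 0.18 (0.680), H1foo 1.04 ± 0.89 (0.562) and H3f3aos -0.81 ± 1.54 (0.829). H3f3b pointed the other way from H2afz. It had 5873 and 4151 normalized counts with adjuvant alone and 3786, 4137 and 3970 with adjuvant/Fat1562, a log2 fold change of -0.34 ± 0.13 (adjusted p 0.145). The groups only just did not overlap, and 1 control library was high. Without replicate 2 of VAT adjuvant alone, which leaves that library as the only control, H3f3b was called lower at -0.57 with an adjusted p of 0.0281, as it was with no filter (-0.34, 0.0266).

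Among the highest Hist genes, Hist1h4i had 77.0 and 56.1 normalized counts with adjuvant alone and 76.4, 77.3 and 98.4 with adjuvant/Fat1562 in VAT, a log2 fold change of 0.34 ± 0.32 (adjusted p 0.609). Hist1h4d was at 0.96 ± 0.38 (0.148), Hist2h4 at 0.76 ± 0.49 (0.411), Hist3h2a at -0.98 ± 0.45 (0.223), Hist1h1c at -0.997 ± 0.51 (0.276), Hist1h2bj at 0.28 ± 0.50 (0.812) and Hist1h2ab at -0.0017 ± 0.51 (0.999). The intervals of these low genes were wide. That of Hist1h2bj, for example, ran from -0.77 to 1.33.

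**Figure D3:**
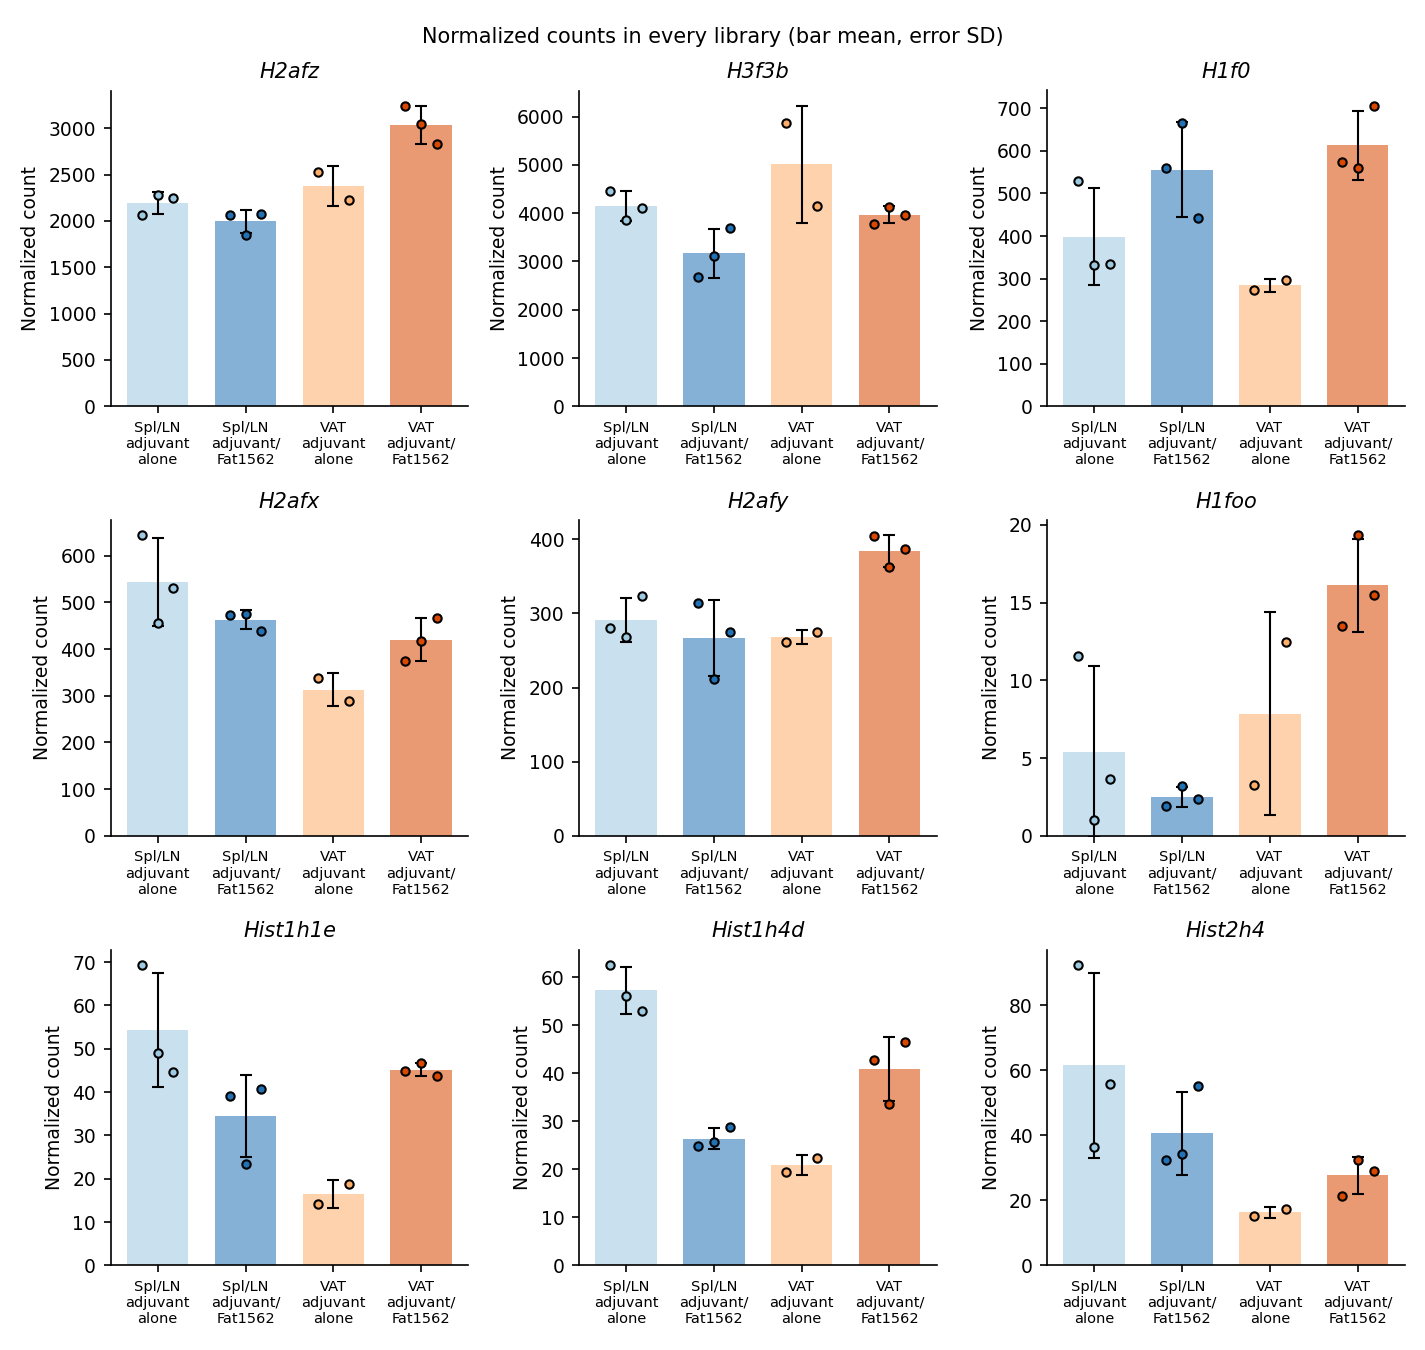
Normalized counts of 9 histone genes in every library, with bars at the group mean and error bars of 1 SD (the bar of H1foo in Spl/LN adjuvant alone is cut at 0). By group mean, H1f0 and H2afz are highest in VAT adjuvant/Fat1562, and Hist1h1e, Hist1h4d and Hist2h4 are lowest in VAT adjuvant alone.

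The genes that make and carry histones were read from 4 lists. In VAT, 15 of the 28 S phase genes were called higher and none lower, with a median log2 fold change of 0.68 and all 28 estimates above 0. Of all genes, 4.33% were called higher and 3.97% lower. The calls depended on replicate 2 of VAT adjuvant alone, the library high in immunoglobulin transcripts. Its summed level of 2129 CPM was lower than the 3151 CPM of replicate 1, and without it 0 of the 28 were called by edgeR (12 higher at an unadjusted p under 0.05, 26 above 0, median 0.43). Without replicate 1, 18 were called (median 1.00), and without replicate 1, 2 or 3 of VAT adjuvant/Fat1562 there were 9, 2 and 11. Ccne2, a cyclin of entry into S phase, was at 1.84 ± 0.37 (adjusted p 0.00467), the helicase subunit gene Mcm6 at 0.62 ± 0.14 (0.0103) and the thymidylate synthase gene Tyms at 0.78 ± 0.18 (0.0116). They were, without replicate 2 of VAT adjuvant alone, at 1.32 (0.0866), 0.34 (0.184) and 0.46 (0.201), and without replicate 1 at 2.73 (0.00255), 0.97 (0.000426) and 1.21 (0.00141).

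Of the 15 genes for histone pre-mRNA expression and 3′ processing, Eri1, an exonuclease that trims the histone mRNA end, rose by 0.97 ± 0.20 (adjusted p 0.00528) and Cpsf2, a subunit of the cleavage complex, by 0.61 ± 0.12 (0.00480), and none fell (median 0.23). Without replicate 1 of VAT adjuvant alone neither was called (0.0563 and 0.0671), and without replicate 2 Eri1 was not (0.0526), though their log2 fold changes stayed at 0.97 to 0.98 and 0.57 to 0.65. The most abundant of the list, Mif4gd, a partner of SLBP in histone mRNA translation, was not called there. Of 12 genes for the replication-coupled supply of histones, the chaperone gene Asf1b (0.88 ± 0.22, adjusted p 0.0188) and Chaf1a, the large subunit of the assembly factor CAF-1 (0.82 ± 0.24, 0.0452), were called higher and Tonsl, which reads newly made H4, lower (-0.44 ± 0.10, 0.0107), with a median of 0.22. Each of these calls depended on a control library. Asf1b was at 0.51 (0.262) without replicate 2 of VAT adjuvant alone and 1.39 (0.00296) without replicate 1, Chaf1a at 1.09 (0.0648) and 0.59 (0.352), and Tonsl at -0.55 (0.0163) and -0.32 (0.190). Chaf1a was called in 4 of the 11 fits that left out a library. None of the 15 genes for the supply of replacement histones was called by edgeR (median 0.025). At an unadjusted p under 0.05 there were 3, all higher, and DESeq2 called 1 higher.

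**Figure D4:**
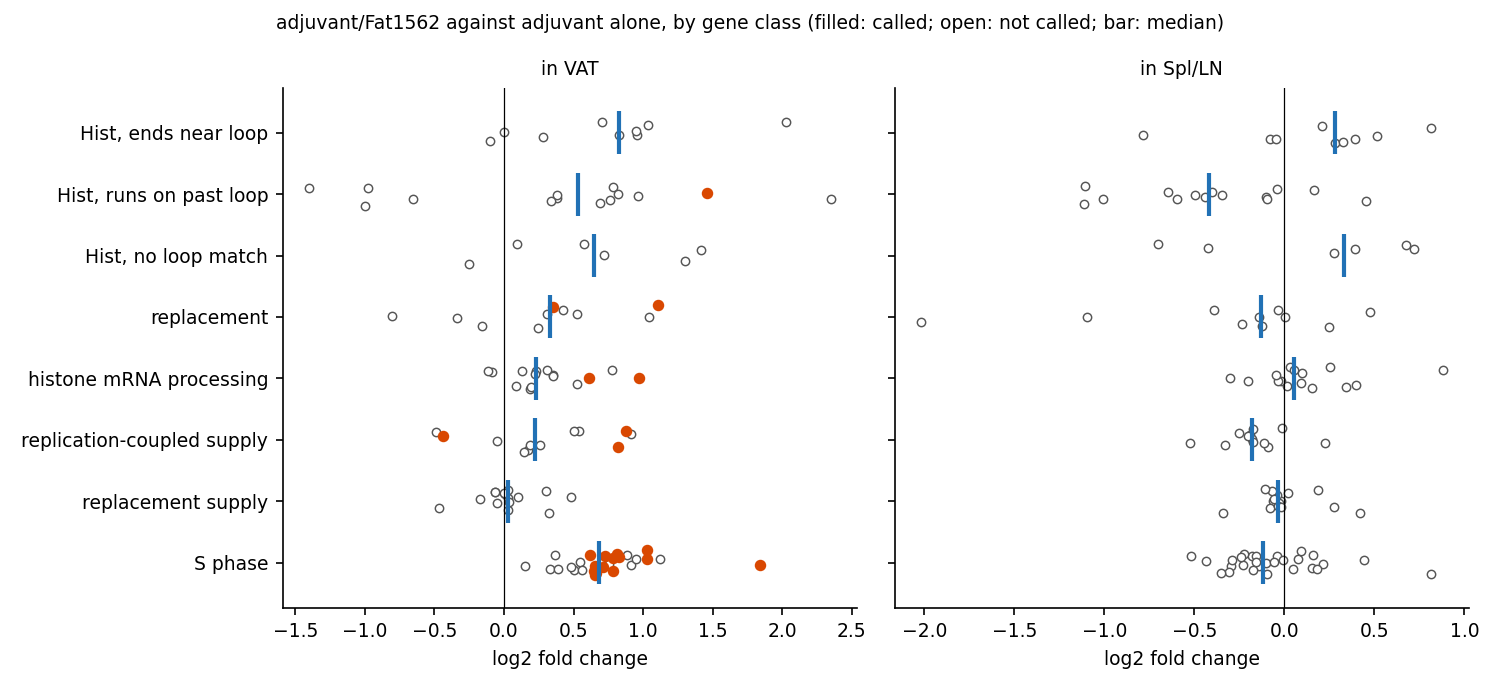
Fitted log2 fold changes with Fat1562 for each tissue, relative to the controls, for Hist genes by annotated end, replacement histone genes and 4 lists of related genes; each point is a gene, filled where called, and the vertical bar is the median. In VAT the medians of all 3 Hist classes and of S phase genes lie above 0, at 0.53 to 0.83 (for Hist classes 0.38 to 0.65 without genes that passed the filter through 1 group), while in Spl/LN the Hist genes that run on past the loop have a median of -0.42.

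In Spl/LN the same comparison gave no called histone gene of 39 by edgeR, against 3.98% of all genes. At an unadjusted p under 0.05 there were 4, and DESeq2 called 2, H3f3b and Hist1h4d, both lower. The shares of all genes at these thresholds were not taken, so these counts are not set against genes at large. Of the 29 Hist genes 12 had a positive estimate (median -0.08), and of the 10 replacement genes 3 (median -0.13), beside a median of 0.00 over all genes. The Hist genes that run on past the stem-loop had a median of -0.42, with 12 of 14 estimates below 0, and those that end near it 0.28, with 6 of 9 above 0. Without the genes that passed the filter through 1 group, these were -0.44, with 11 of 13 below 0, and 0.34, with 5 of 6 above 0.

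H3f3b (chr11:116021912-116027962, minus strand, up to 6 exons), the H3.3 gene with the higher level, had 4468, 3869 and 4110 normalized counts in Spl/LN adjuvant alone and 2689, 3122 and 3693 in Spl/LN adjuvant/Fat1562. All 3 libraries with Fat1562 lay below all 3 controls, and the log2 fold change of -0.39 ± 0.12 had an adjusted p of 0.0868. It passed the threshold with DESeq2 (0.0319), with no filter (0.00176), with library totals (0.0499) and without replicate 3 of Spl/LN adjuvant/Fat1562 (0.0429) or either VAT adjuvant alone library (0.0399 and 0.0385), and not otherwise. Hist1h4d (chr13:23581598-23582735, plus strand, 1 exon), a replication-dependent H4 gene, had 62.7, 56.2 and 53.0 against 24.8, 25.6 and 28.8 normalized counts. These groups did not overlap either, and the log2 fold change was -1.11 ± 0.32 with an adjusted p of 0.0641. H1f0 had 529.6, 331 and 334 against 559.7, 666 and 442, which overlap, with a log2 fold change of 0.48 ± 0.18 (adjusted p 0.162). It was called higher without replicate 1 of Spl/LN adjuvant alone, the highest control (0.74, 0.0232), and with no filter (0.0420). H2afz was at -0.14 ± 0.09 (0.436). None of the 4 lists of histone supply and S phase genes had a called member there, with 0 by edgeR and 0 by DESeq2. At an unadjusted p under 0.05 there were 1 processing gene higher, 2 replication-coupled supply genes lower, 2 replacement supply genes higher and 1 lower, and 1 S phase gene lower.

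VAT was next compared with Spl/LN, first with adjuvant alone. Of 39 histone genes 4 were called, all lower in VAT, namely H2afx, Hist1h1e, Hist1h4d and Hist2h4. They were 10.3% of the 39, against 16.3% of all genes called in either direction and 7.18% called lower. Estimates were below 0 for 18 of 29 Hist genes (median log2 fold change -0.40) and for 5 of 10 replacement genes (median -0.05), beside a median of -0.03 over all genes. By annotated end, the Hist genes that run on past the loop had a median of -0.80, the genes that end near it -0.09, and the 3 called Hist genes all belong to the former. Without the genes that passed the filter through 1 group, 14 of 25 Hist estimates were below 0 with a median of -0.089, and the genes that run on past the loop had a median of -0.74. Without replicate 2 of VAT adjuvant alone, 21 of 29 Hist estimates were below 0 (median -0.36), and without replicate 1, 19 of 29 (-0.34).

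H2afx (chr9:44334694-44336077, plus strand, 1 exon) had 644, 456 and 530.5 normalized counts in Spl/LN and 338 and 288 in VAT. Every VAT library was below every Spl/LN library. The log2 fold change was -0.79 ± 0.16, adjusted p 0.00217, and the gene was called under all 7 other settings and with any library left out.

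Hist1h1e had 69.5, 49.0 and 44.7 normalized counts in Spl/LN adjuvant alone against 14.1 and 18.7 in VAT, a log2 fold change of -1.73 ± 0.42 (adjusted p 0.00879). Hist1h4d had 62.7, 56.2 and 53.0 against 19.5 and 22.5, a log2 fold change of -1.45 ± 0.38 (0.0147). Hist2h4 (chr3:96261682-96263311, minus strand, 1 exon), an H4 gene outside the large cluster on chromosome 13, had 92.6, 36.5 and 55.7 against 15.2 and 17.5, a log2 fold change of -1.91 ± 0.49 (0.0111). None of the 3 overlapped between tissues, and the VAT libraries held 13 to 18 raw reads of each. Without replicate 2 of VAT adjuvant alone, Hist1h1e and H2afx were still called, Hist1h4d had an adjusted p of 0.0691 and Hist2h4 of 0.0629, and H3f3b was called higher in VAT (0.50, adjusted p 0.0277). Without replicate 1, H2afx was the only one called, and the 3 Hist genes had adjusted p of 0.0954 to 0.117. Hist1h4d also lost its call with no filter (0.0766) and, like Hist1h1e, with only the groups compared (0.0689 and 0.0519).

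The other members were not called in this comparison. H3f3b was at 0.27 ± 0.13 (adjusted p 0.192), H2afz at 0.11 ± 0.10 (0.489), H1f0 at -0.49 ± 0.21 (0.138) and H2afv at -0.31 ± 0.12 (0.108), both of which were called lower with library totals (0.0489 and 0.0151), and Hist1h4i, the highest Hist gene, at 0.27 ± 0.32 (0.632). Of the S phase list 2 of 28 were called lower in VAT, the ribonucleotide reductase gene Rrm2 (-0.99 ± 0.18, adjusted p 0.000983) and the cyclin gene Ccna2 (-0.55 ± 0.14, 0.0118), and none higher (median -0.22). That count was near the 7.18% of all genes called lower. The calls in the other lists stand beside 16.3% of all genes called in either direction, and describe single genes. Of the processing list Eri1 (-0.93 ± 0.20, 0.00355) and Lsm10, a part of the U7 particle that directs histone 3′ processing (-0.90 ± 0.24, 0.0139), were lower and Mif4gd higher (0.40 ± 0.11, 0.0202). Asf1b (-0.90 ± 0.22, 0.00872) was the only replication-coupled supply gene called, while Hjurp, the CENP-A chaperone gene (-0.64 ± 0.15, 0.00563), and Anp32e, whose product removes H2A.Z (-0.57 ± 0.15, 0.0116), were the replacement supply genes called, all lower. Without replicate 2 of VAT adjuvant alone, Rrm2, Eri1, Lsm10 and Hjurp were still called, and Ccna2 (-0.40, 0.170), Asf1b (-0.54, 0.161), Anp32e (-0.46, 0.139) and Mif4gd (0.33, 0.169) were not. The median of the S phase list was then 0.064. Without replicate 1, Mif4gd (0.0572), Lsm10 (0.173) and Hjurp (0.0702) were not called, and 8 S phase genes were called lower (median -0.53).

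After adjuvant/Fat1562, 3 of 39 histone genes differed between the tissues, all higher in VAT (7.69%, against 15.0% of all genes in either direction and 8.26% higher). They were the replacement genes H2afz, H2afy and H1foo, and no Hist gene was called, with 0 of 29 by edgeR, 0 by DESeq2 and 1 at an unadjusted p under 0.05. The medians were 0.16 for Hist and 0.22 for replacement genes, beside -0.01 over all genes.

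H2afz had 2066, 1850 and 2069 normalized counts in Spl/LN and 3239, 3047 and 2827 in VAT. The groups lay far apart, and the log2 fold change of 0.61 ± 0.09 had an adjusted p of 0.000103. It was called under all 7 other settings and with any library left out. H2afy (chr13:56073619-56136361, minus strand, up to 9 exons) encodes macroH2A1, a histone linked to silent chromatin. It had 314, 212 and 275 normalized counts in Spl/LN and 405, 362 and 387 in VAT, which do not overlap, and a log2 fold change of 0.52 ± 0.15 (adjusted p 0.0276). Its call was lost without replicate 2 (0.137) or 3 (0.0623) of Spl/LN adjuvant/Fat1562 or any library of VAT adjuvant/Fat1562 (0.0556 to 0.102), and with library totals (0.0586). H1foo (chr6:115944938-115950236, plus strand, up to 6 exons) had 2 to 3 raw reads in each Spl/LN library and 12 to 19 in each VAT library, a log2 fold change of 2.64 ± 0.85 (adjusted p 0.0465). It entered the test only through its level in VAT adjuvant/Fat1562, which favours a difference, and its call was lost with no filter (0.0885), with library totals (0.0517) and with the replicate number as a block (0.0719). The call held in 5 of the 11 fits that left out a library and was lost, at up to 0.142, without any single library of either adjuvant/Fat1562 group.

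H3f3b (0.32 ± 0.12, adjusted p 0.0855) and H3f3a (0.30 ± 0.11, 0.0913) did not overlap between the tissues but missed the threshold. H3f3b passed it with no filter (0.0121), with only the groups compared (0.0290), without replicate 3 of Spl/LN adjuvant/Fat1562 (0.0300) and without either VAT adjuvant alone library (0.0404 and 0.0397). Also not called were H2afj (-0.36 ± 0.16, 0.146) and H2afx (-0.14 ± 0.14, 0.589). Of the S phase genes 13 of 28 were called higher and none lower (median 0.65), and 2 to 19 with a library left out, the fewest without replicate 2 of VAT adjuvant/Fat1562, with Mcm2 at 0.71 ± 0.15 (adjusted p 0.00296), Mcm3 at 0.65 ± 0.15 (0.00655) and the thymidine kinase gene Tk1 at 0.87 ± 0.15 (0.000674). Nasp, a chaperone that holds the reserve of H3 and H4 (0.76 ± 0.19, 0.00937), and Rbbp7, a subunit shared by several histone complexes (0.39 ± 0.10, 0.0116), were higher among 12 replication-coupled supply genes. Among 15 replacement supply genes, Nap1l1, an H2A-H2B chaperone gene, was higher (0.59 ± 0.11, 0.00116), and Daxx, which deposits H3.3 at silent repeats (-0.53 ± 0.13, 0.00799), and Cabin1, a partner of the H3.3 chaperone HIRA (-0.44 ± 0.12, 0.0221), were lower. Of 15 processing genes Mif4gd was higher (0.33 ± 0.10, 0.0334). Beside these list counts, 8.26% of all genes were called higher and 6.73% lower in this comparison.

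**Figure D5:**
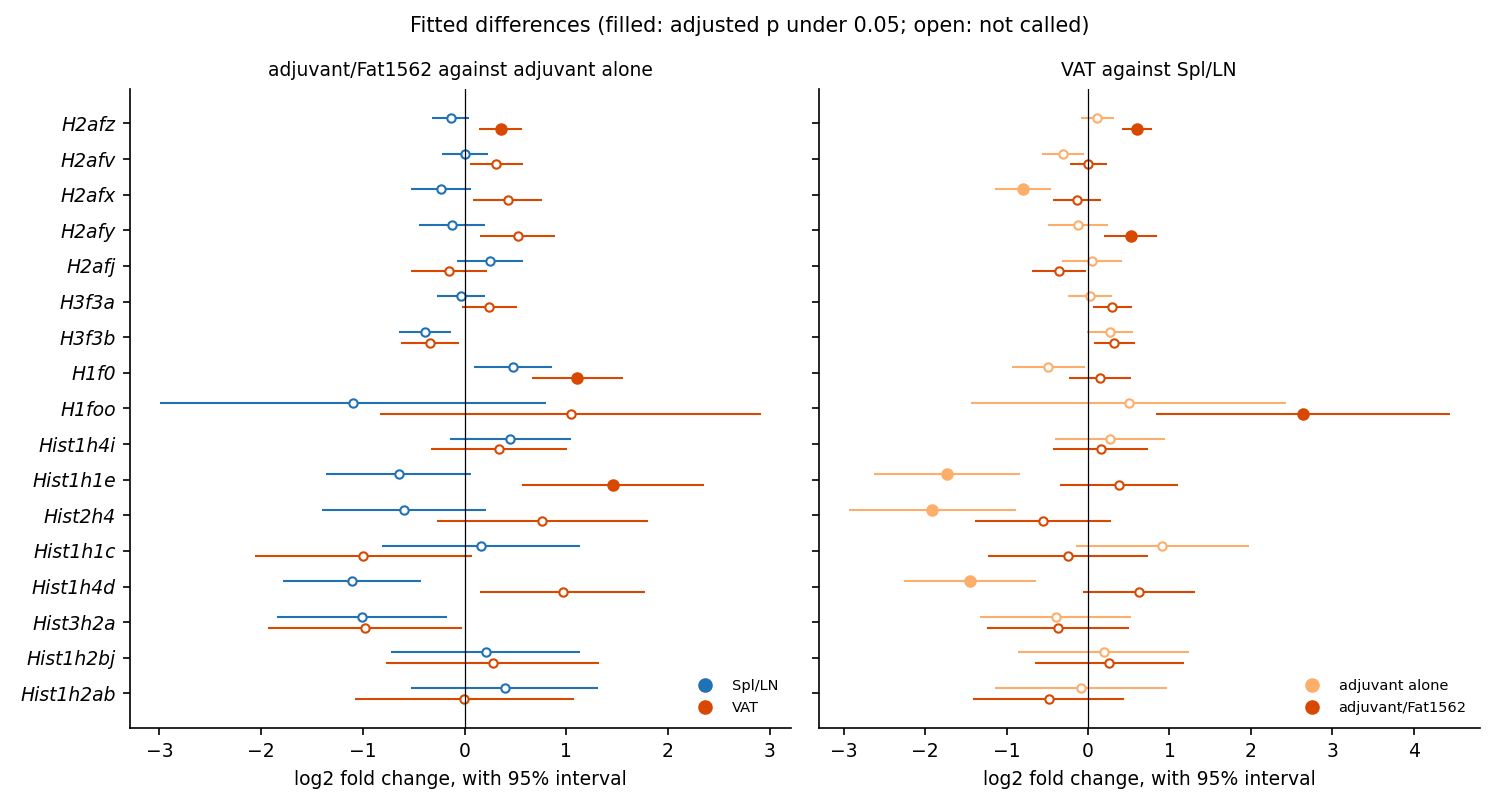
Fitted log2 fold changes with 95% intervals for 9 replacement and 8 Hist genes, for adjuvant/Fat1562 against adjuvant alone (left) and for VAT against Spl/LN (right); filled points were called. For Fat1562, H1f0, H2afz and Hist1h1e are filled in VAT and no gene in Spl/LN.

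Whether Fat1562 acted differently in the 2 tissues was tested as the interaction of tissue and immunization. Hist1h1e, Hist1h4d and H2afz were called of 39 histone genes, all with a greater fold change in VAT (7.69%, against 3.72% of all genes in either direction and 1.70% greater in VAT). Hist1h4d, for which Spl/LN adjuvant alone, Spl/LN adjuvant/Fat1562, VAT adjuvant alone and VAT adjuvant/Fat1562 had means of 57.3 ± 4.96, 26.4 ± 2.12, 21.0 ± 2.07 and 40.9 ± 6.64 normalized counts, differed by 2.07 ± 0.50 (adjusted p 0.0277). Hist1h1e, with means of 54.4 ± 13.2, 34.5 ± 9.54, 16.4 ± 3.26 and 45.2 ± 1.54, differed by 2.11 ± 0.54 (0.0390). H2afz, with means of 2196 ± 119.6, 1995 ± 126, 2377 ± 216 and 3037 ± 206, differed by 0.49 ± 0.13 (0.0477). For both Hist genes the estimate was negative in Spl/LN and positive in VAT. Of the 11 fits that left out a library, Hist1h4d was called in 4, Hist1h1e in 2 and H2afz in 2. Without replicate 1 or replicate 2 of VAT adjuvant alone none of the 3 was called, with estimates of 1.98 and 2.18 for Hist1h4d, 1.92 and 2.32 for Hist1h1e and 0.59 and 0.41 for H2afz. The Hist genes had a median interaction of 0.79 and the S phase genes of 0.83, beside 0.01 over all genes, and 4 of 28 S phase genes were called, all greater in VAT. Without the genes that passed the filter through 1 group the Hist median was 0.31. It was 0.71 without replicate 2 of VAT adjuvant alone, with 0 S phase genes called by edgeR and 11 at an unadjusted p under 0.05, and without replicate 1 it was 0.53, with 13. H3f3b had an interaction of 0.05 ± 0.18 (adjusted p 0.938), with an interval from -0.33 to 0.43.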

How the data were processed

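The 11 libraries, each from 1000 cells, were made by Smart-seq2, primed with anchored oligo(dT), amplified with 18 PCR cycles and sequenced as paired reads of 38 bases. The authors deposited raw counts, whole numbers per gene symbol. The submitters' processing notes name STAR 2.5.4, featureCounts and mm10, while the paper's methods name another quantifier and a filter on expression and variation. The annotation, the strand setting and the treatment of reads with several matches are not given in the sources used here. No molecular identifiers are named, so counts are of amplified fragments.

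Groups came from the sample labels, and all 11 columns were matched. Counts were scaled to a common library total, and the 12932 of 52997 genes whose mean then exceeded 10 in any group entered 1 quasi-likelihood fit and test of all 4 groups (edgeR 4.0.16, R 4.3.3, TMM, prior count 0.125). P-values were adjusted over all genes tested (Benjamini-Hochberg) and genes called under 0.05. Counts at an unadjusted p, by DESeq2 or under another setting stand without the share of all genes there and describe only the genes counted. Errors beside fold changes are SE and beside levels SD between libraries. The common biological coefficient of variation was 19.1%, with 7 residual degrees of freedom. Summed levels are CPM of the TMM-scaled library size and levels per kb use the union of exons. Pairs of replicates differed by 5.33 to 11.4 times counting noise (chi-square per degree of freedom, 10 pairs), so no library was a copy of another in its group. Libraries made separately from 1 recipient would not be detected this way, and the paper calls the replicates biological. The steps were tested on simulated data.

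Positions, overlaps, stem-loops and shared 38-base stretches were taken from GENCODE vM21 (GRCm38), where all 48 members were found. The level of 1 marker gene is not reported here. The members, the 8 gene lists and the tests were chosen with earlier results of these data known. Named are all replacement members, Hist members called or among the 8 of highest mean, symbols next to the limit of 50 counts, and, from the lists, called genes and the 3 most abundant. Alternatives were no filter, a mean above 50, median-of-ratios factors, library totals, DESeq2 1.42.0, only the groups compared, the replicate number as a block and each library left out. For sums they were raw totals, median-of-ratios factors, no top member and members with under 20% shared stretches. Leaving out libraries for sums and for counts over gene classes and lists, leaving out members that passed the filter through 1 group, and all alternatives for the share by annotated end, were chosen after seeing the data.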

Additional observations from a re-analysis of the deposited data

Results flagged for a closer look

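The effect of Fat1562 differed between VAT and Spl/LN, by the interaction test of edgeR, for 3 histone genes. The difference of the log2 fold changes was 2.11 for Hist1h1e (fold change 1.46 in VAT and -0.65 in Spl/LN), 2.07 for Hist1h4d (0.96 and -1.11) and 0.49 for H2afz (0.35 and -0.14), with adjusted p of 0.0390, 0.0277 and 0.0477. The summed B cell markers, at 1287 and 7282 CPM in the 2 VAT adjuvant alone libraries, were uneven between them, and their part in these differences was not tested.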

How the results depend on the processing

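The number of histone genes called depended on the settings, and most calls were near the threshold. Of the 13 calls, those of H1f0 (Fat1562 in VAT), H2afx (VAT against Spl/LN, adjuvant alone) and H2afz (VAT against Spl/LN, adjuvant/Fat1562) held under every alternative run. No named histone gene changed direction with a call. The counts that follow stand without the share of all genes called under the same setting, so they describe the histone genes only. For VAT against Spl/LN with adjuvant alone, 8 genes were called with library totals and 2 with only the groups compared, instead of 4. After adjuvant/Fat1562, 1 was called with library totals, instead of 3. For Fat1562 in Spl/LN, 2 were called with no filter, 1 with library totals and 2 with DESeq2, instead of 0. For the interaction, 0 were called with no filter, instead of 3. The cause was not tested. With 1 library left out, the counts ran from 1 to 5 and from 1 to 4 for the tissue comparisons without and with Fat1562, from 1 to 3 and from 0 to 1 for Fat1562 in VAT and Spl/LN, and from 0 to 2 for the interaction.

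With the replicate number as a block, 0 genes were called for the interaction, and the other counts stayed within 1.5 times. Deviations of same-numbered libraries correlated at r of -0.04 to 0.055 over 15 pairs and those of other pairs at -0.058 to 0.04. Between groups, a recipient could be shared only across tissues within an immunization. There, same-numbered pairs had r of 0.030 to 0.055 and other pairs -0.058 to 0.028. These values are small but higher for the same number, so a shared recipient was not excluded. The main fit did not pair libraries by number.

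The log2 ratio of the Hist sum between VAT and Spl/LN was -0.44 with adjuvant alone and 0.13 after Fat1562, and over members with under 20% shared stretches -0.78 and -0.27. With raw totals the latter ratio was 0.058. For Fat1562, the ratio over those members was 0.045 in VAT and -0.46 in Spl/LN, instead of 0.36 and -0.20. The replacement ratio between tissues was 0.08 with adjuvant alone, and -0.10 without H3f3b, and 0.32 after Fat1562, and 0.20 over members with under 20% shared stretches. For Fat1562 it was 0.38 in VAT and -0.033 in Spl/LN without H3f3b, instead of 0.06 and -0.18. With 1 library left out, the Hist ratios ran from -0.54 to -0.34 and from 0.10 to 0.17 between tissues and from 0.27 to 0.46 and from -0.31 to -0.11 for Fat1562. The replacement ratios ran from -0.086 to 0.22 and from 0.28 to 0.38 between tissues and from -0.090 to 0.22 and from -0.24 to -0.14 for Fat1562. Without replicate 1 of VAT adjuvant alone the replacement ratio between tissues was -0.086, and without replicate 2 that for Fat1562 in VAT was -0.090. Depth limits the Hist genes, at 377 to 798 counts per library in all.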
